A study of Mus musculus with 2 samples.

Results

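MicroRNA genes that miRBase, the catalogue of microRNAs, has numbered 1000 or above were examined in small RNA of primary mouse fibroblasts. They were chosen by class and symbol alone: rows of the Ensembl noncoding RNA table that are of the microRNA class and whose symbol is Mir followed by a number of at least 1000. This gave 20 loci of the 191 microRNA rows and of the 1596 rows of the table in all.

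The cells were primary ear fibroblasts (PMFs) of C57BL/6 mice (C57BL/6-J in the study's methods) of about 3 weeks of age. AF357425 (AF25) is a C/D box small nucleolar RNA (snoRNA) of the mouse, and the study asked which small RNAs differ with its level. AF25-high cells received 3GA-AF25, an antisense oligonucleotide of DNA used to overexpress AF25, at 200 nM, and AF25-low cells received GM-AF25, a gapmer that inhibits AF25, at 500 nM. Before transfection, which lasted 24 h, both cultures had spent 48 h in medium with KN-93 (10 μM), which blocks the kinase CaMK-II and holds cells in the G1 phase. Each condition had 1 library, so no test of the conditions was possible, and the level of AF25 cannot be told apart from the oligonucleotide's chemistry and dose. No library with a control oligonucleotide was used here, and reads of AF25 itself were not analysed here.

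A microRNA gene is transcribed as part of a longer RNA that folds into a hairpin. Drosha cuts the hairpin free in the nucleus, Dicer removes its loop in the cytoplasm, and a strand of the remaining duplex is loaded into an Argonaute protein. Bases 2 to 8 of the loaded strand, the seed, pair with target messenger RNAs and lower their translation and stability. Genes with low numbers were found first and include most of the abundant, conserved families, such as let-7 and miR-21. Genes with high numbers mostly come from deep sequencing, and many lie in introns, in exons, in other structured RNAs or in repeated sequence, where a short read may come from another kind of transcript.

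Mature sequences from the RefSeq tables of GRCm38.p6 were matched for 16 of the 20 loci, and for none of Mir5099, Mir3079, Mir6395 and Mir3960. These are shown for the 12 named loci with most reads that have one, since the seed and the base composition tell apart loci that the later comparisons set side by side. Each runs 5′ to 3′, with the seed in capitals.
mmu-miR-1198-5p: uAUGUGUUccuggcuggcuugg
mmu-miR-1198-3p: aAGCUAGCcucuaacucauggc
mmu-miR-1983: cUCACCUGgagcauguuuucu
mmu-miR-6240: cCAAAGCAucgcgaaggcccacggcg
mmu-miR-3968: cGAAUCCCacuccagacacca
mmu-miR-3473d: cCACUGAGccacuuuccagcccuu
mmu-miR-5126: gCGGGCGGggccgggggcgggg
mmu-miR-3102-5p: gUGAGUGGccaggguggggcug
mmu-miR-3102-5p.2-5p: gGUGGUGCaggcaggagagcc
mmu-miR-3102-3p.2-3p: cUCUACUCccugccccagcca
mmu-miR-3102-3p: gAGCACCCcauuggcuacccaca
mmu-miR-1191a: cAGUCUUAcuauguagcccua
mmu-miR-5124a: gGUCCAGUgacuaagagcau
mmu-miR-2137: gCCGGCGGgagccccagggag
mmu-miR-6236: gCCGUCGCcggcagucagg
mmu-miR-6914-5p: uCCUGGGGuggugguggccacaga
mmu-miR-6914-3p: uCUGUCCAccucuucccag

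The 21 mature sequences of the 16 loci had 21 distinct seeds, so no pair of these loci shared one. Seeds were shared with lower-numbered genes at 5 loci: Mir1983 with Mir412, Mir6240 with Mir330, Mir3473d with Mir674, Mir3102 with Mir702 through its outer 5p strand, and Mir5124b with Mir24-1 and Mir24-2. These 5 loci held 1946 reads in the AF25-high library and 2003 in the AF25-low library. Their summed ratio of 0.980 (0.920 to 1.04) was mostly that of Mir1983 and Mir6240. Of the 4 with at least 20 reads in either library 3 were lower in AF25-high, with a median log2 ratio of −0.52. Over all 436 such rows 207 were lower (median 0.06), and over the 72 microRNA rows outside the group 44 (median −0.17). With 4 loci this is not read as a departure. The directions of the sum and of Mir6240 depend on how the libraries are scaled. The reads are of whole rows and do not measure the mature strands that carry the seeds. None of the 12 listed mouse genes with a human counterpart of the same number, such as Mir1224 and Mir1249, had a row, a count of 0 of 12. The list was not checked to be complete, so this does not mean that none of the loci has such a counterpart.

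Values are given as reads and as RPM, the reads in proportion to all reads of the library, from library totals of 28856715 in AF25-high and 29103700 in AF25-low. The Ensembl table held 375931 and 533803 of these reads, 1.30% and 1.83%. Ratios are RPM in AF25-high over RPM in AF25-low, each with an exact Clopper-Pearson 95% interval that covers counting error only, since reads after PCR are not independent molecules. Reads of microRNAs in miRBase were counted by the authors in another step and were not analysed here, so the rows below are what remained under Ensembl's genes and do not measure the levels of the mature microRNAs. Of 12 listed fibroblast microRNAs 8 had rows, with 16271 and 28757 reads, of which Mir27a gave 10275 and 23031. Of 25 listed for other cell types 1 had a row, Mir200a with 6 and 0 reads. Since reads of mature microRNAs were counted elsewhere, these rows cannot check the cell type. Other scalings of the libraries multiply every ratio by 0.868, 1.41 or 1.56, which turns the direction of ratios between 0.642 and 1.15.

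The 20 loci together had 18494 reads in the AF25-high library and 9918 in the AF25-low library, which is 641 and 341 RPM. Their summed ratio was 1.88 (1.84 to 1.93), and it lay between 1.63 and 2.93 under the other scalings. The other 171 microRNA rows went the opposite way, from 1453 RPM in AF25-high to 2263 RPM in AF25-low, a ratio of 0.642 (0.634 to 0.650), below 1 under every scaling except that to these rows themselves. Most of that difference lay in Snord43, with 17652 and 27685 reads, and Mir27a, with 10275 and 23031, and the 169 rows without them had a ratio of 0.933 (0.911 to 0.954). The higher-numbered loci therefore held 30.6% of the reads under microRNA genes in AF25-high and 13.1% in AF25-low.

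Most of this difference lay in a single locus. Without Mir5099 the other 19 loci had 3396 and 3198 reads, 118 and 110 RPM, and a ratio of 1.07 (1.02 to 1.12), a value whose direction depends on the scaling. The 124 microRNA rows numbered below 1000 and let-7 had a ratio of 0.615 (0.604 to 0.625), and 0.909 (0.887 to 0.932) without Mir27a, their most abundant row. These values without Snord43 and Mir27a were added after the data were seen and, at 0.909 and 0.933, lie in the range that the scaling turns. With 1 library a condition, no test between the groups of rows was possible.

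Of the 20 loci, 9 had at least 20 reads in the higher library. Of these 9, 5 were higher and 4 lower in AF25-high, and under the other scalings 4 to 6 were higher. The interval lay above 1 for 4 loci, below 1 for 3 and held 1 for 2. Those of Mir1983, Mir3968 and Mir3102 came to hold 1 under some of the other scalings. That of Mir6240 held 1 on the RPM scale but under none of the others. Intervals were not counted in this way over all rows with 20 reads, so these counts are not read as a result about the loci. Mir5099 and Mir5126 were at least 2-fold higher in AF25-high and Mir3473d at least 2-fold lower. Among all 436 rows with 20 reads, 70 (16.1%) were at least 2-fold higher and 53 (12.2%) at least 2-fold lower. Among the 72 such microRNA rows outside the group, 4 (5.56%) were higher and 12 (16.7%) lower by as much. With 9 loci, counts of 2 and 1 are not read as a departure from these shares. The median log2 ratio of the 9 loci was 0.07, beside 0.06 over the 436 rows and −0.17 over the 72.

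**Figure D1:**
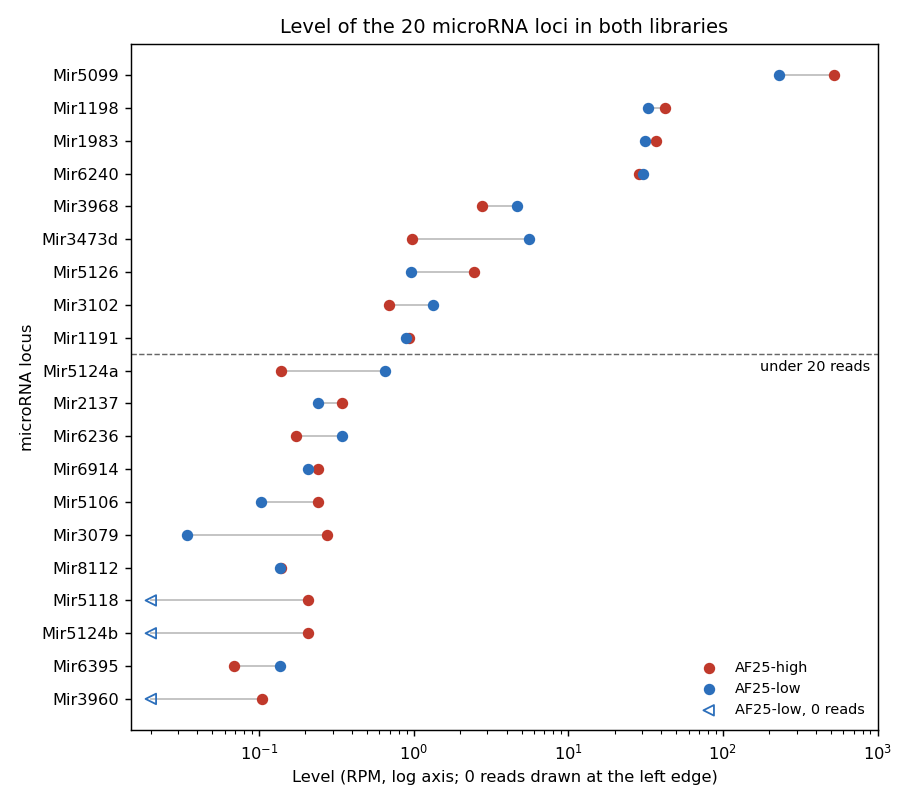
Level of each of the 20 loci in RPM (log axis) in the AF25-high library (red) and the AF25-low library (blue), with open triangles at the left edge for 0 reads and a dashed line between the 9 loci with at least 20 reads and the 11 below. Mir5099 stands alone at 523 and 231 RPM, and Mir1198, Mir1983 and Mir6240 lie close together between 28.6 and 42.1 RPM.

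Mir5099 (ENSMUSG00000092998; chr12:36816205-36816278, plus strand, GRCm38) is a gene of 74 bases outside any protein-coding gene. It had 15098 reads in the AF25-high library and 6720 in the AF25-low library, 523 and 231 RPM. Its ratio was 2.27 (2.20 to 2.33), and 1.97 to 3.53 under the other scalings, so the direction held under each of them. Among the 191 microRNA rows it was the second in AF25-high, after Snord43, a snoRNA gene with a transcript classed as microRNA, and the third in AF25-low, after Snord43 and Mir27a. Reads were ranked without division by length, and the 20 loci span 66 to 132 bases.

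Mir5099 held 81.6% of the reads of the 20 loci in AF25-high and 67.8% in AF25-low. It held 25.0% of all reads under microRNA genes in AF25-high and 8.87% in AF25-low. Only 4 of the 81 microRNA rows with 20 reads had a higher ratio, and among all 436 rows it was the 55th from the highest. Its hairpin was low in GC, at 37.8%, and 78.4% of its bases were paired in the predicted fold, the largest share of the 16 hairpins. An exact run of 20 of its bases was found in the transcripts of 0 of the 55450 other GENCODE genes, and in 1 of 32851 promoter windows, that of Gm42092. The row is thus not one whose sequence recurs in the annotated transcripts that were searched. Runs in sequence between genes were not searched. Large ribosomal RNAs and spliced tRNAs are not among the references used here, so a match to them was not tested.

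**Figure D2:**
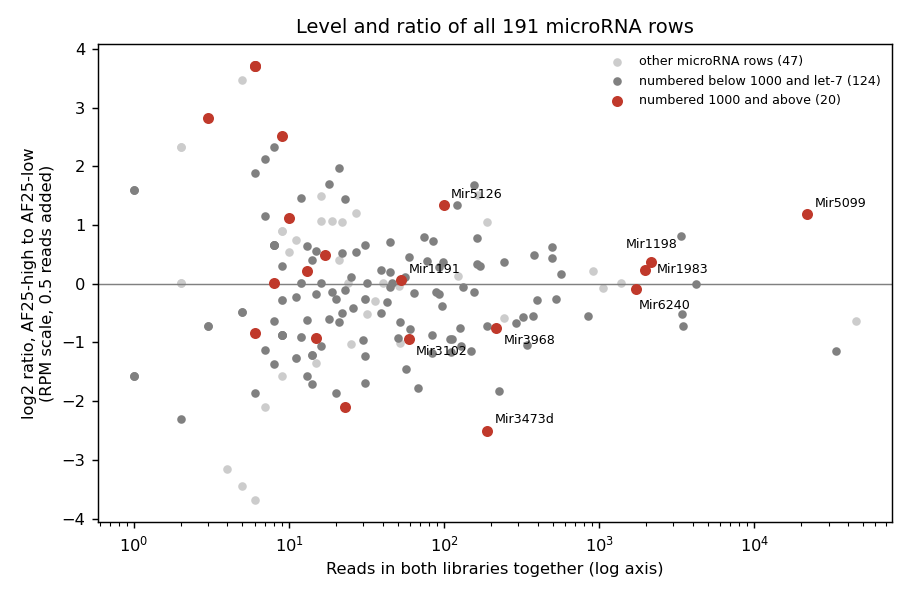
Log2 ratio of AF25-high to AF25-low (RPM scale, 0.5 reads added to each value) against the reads of both libraries together (log axis) for all 191 microRNA rows, 1 point a row. The 20 loci numbered 1000 and above (red) lie on both sides of 0; Mir5099 lies above it at the right edge, and Mir3473d lies lowest of the named loci.

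Mir1198, Mir1983 and Mir6240 formed a middle tier of about equal abundance, each from a different kind of locus. Mir1198 (chrX:7807101-7807221, plus strand) lies in an intron of Gripap1, which encodes a protein of endosomal recycling in neurons, on the same strand. It had 1216 reads in the AF25-high library and 951 in the AF25-low library, 42.1 and 32.7 RPM, a ratio of 1.29 (1.18 to 1.41). The direction held under all scalings, with values of 1.12 to 2.01. Both of its strands are annotated, and neither seed was shared with a lower-numbered gene.

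Mir1983 (chr13:21896918-21897049, minus strand) overlaps a tRNA gene. Transfer RNAs are made as precursors with a 5′ leader and a 3′ trailer, which RNase P and RNase Z remove, and RNA polymerase III, which transcribes them, stops at a run of T. RefSeq places n-TItat14, an isoleucine tRNA gene with the anticodon TAT, at chr13:21896938-21897031, so that 18 bases of the annotated hairpin precede this gene of 94 bases and 20 follow it. Of the 21 bases of mmu-miR-1983, the first 13 lie in the tRNA gene and the last 8, which include a run of U, lie beyond its 3′ end. Such a molecule would span the border that RNase Z cuts.

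**Figure D3:**
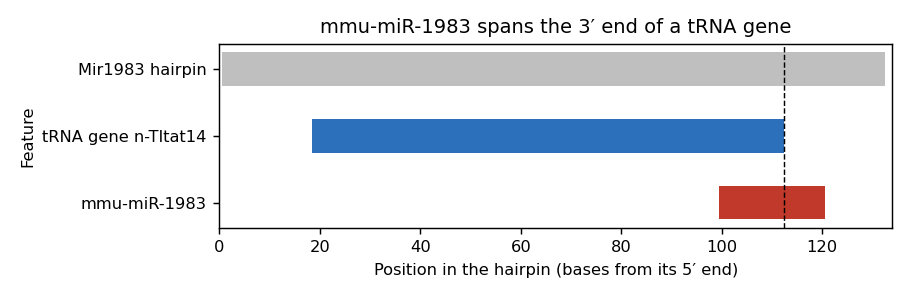
Position of the tRNA gene n-TItat14 (blue) and of mmu-miR-1983 (red) in the Mir1983 hairpin (grey), in bases from the 5′ end of the hairpin. The dashed line marks the 3′ end of the tRNA gene, with 13 bases of mmu-miR-1983 before it and 8 after it.

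The Mir1983 row had 1068 reads in the AF25-high library and 913 in the AF25-low library, 37.0 and 31.4 RPM. The ratio was 1.18 (1.08 to 1.29), and 1.02 to 1.84 under the other scalings, with an interval of 0.936 to 1.12 at the lowest. The table of mature tRNAs, in which reads of the same family are counted without leader and trailer, gave IleTAT 562 and 472 reads, 19.5 and 16.2 RPM, a ratio of 1.20 (1.06 to 1.36). The Mir1983 row thus held more reads than all 4 IleTAT loci of that table together, and the intervals of both ratios overlapped. The row takes in the whole tRNA gene and its flanks, and where its reads lie was not determined. These counts therefore do not compare mmu-miR-1983 with fragments of the mature tRNA.

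The 4 IleTAT loci did not move alike. The chromosome 7 locus had 255 reads in the AF25-high library and 161 in the AF25-low library, a ratio of 1.60 (1.31 to 1.96), and the chromosome 17 locus 285 and 290, a ratio of 0.991 (0.839 to 1.17). The chromosome 13 locus had 18 reads in each library, and the chromosome 1 locus 4 and 3. Reads that fit several loci were assigned by the authors to the locus with most reads, so the split among copies of a tRNA is uncertain. Whether the chromosome 13 locus is the gene under Mir1983 was not determined.

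Mir6240 (chr5:114851948-114852064, plus strand) lies outside protein-coding genes. It had 824 reads in the AF25-high library and 889 in the AF25-low library, 28.6 and 30.5 RPM, a ratio of 0.935 (0.849 to 1.03). On the RPM scale the libraries did not differ at this locus beyond counting error. Its direction turned with the scaling, from 0.811 to 1.46, and none of the intervals under the other scalings held 1. Its predicted fold was the weakest of the 16 hairpins, at −0.21 kcal/mol per base, and 58.1% of its bases were paired. A run of 20 bases of the hairpin was found in 9 other genes. Its annotated mature strand of 26 bases is longer than the usual product of Dicer and the longest of the 21 here.

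Mir6236 (chr9:110281287-110281409, plus strand), also outside protein-coding genes, had 5 and 10 reads, a ratio of 0.504 (0.135 to 1.62). The sequences of the large ribosomal RNAs are not among the references used here, so a match of Mir6240 or Mir6236 to them was not tested. The 4 loci outside protein-coding genes, Mir5099, Mir6240, Mir6236 and Mir5118, summed to 15933 and 7619 reads, a ratio of 2.11 (2.05 to 2.17). Since Mir6240 gave 824 and 889 of these reads and Mir6236 and Mir5118 are rare, this sum is mostly that of Mir5099.

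Mir3968 and Mir5126 lie across exons of protein-coding genes on the opposite strand, and they went in opposite directions. Mir3968 (chr11:115447961-115448060, minus strand) overlaps a coding exon of Trim80, a gene of the tripartite motif family. It had 80 reads in the AF25-high library and 136 in the AF25-low library, 2.77 and 4.67 RPM, a ratio of 0.593 (0.444 to 0.788), and its direction held under all scalings, with 0.515 to 0.924. The interval held 1 when the libraries were scaled to the table's total (0.835, 0.626 to 1.11) or to the other microRNA rows (0.924, 0.692 to 1.23).

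Mir5126 (chr1:84695839-84695915, plus strand) overlaps an untranslated exon of Dner, which encodes a transmembrane ligand of Notch known from neurons. It had 71 reads in the AF25-high library and 28 in the AF25-low library, 2.46 and 0.962 RPM. Its ratio of 2.56 (1.63 to 4.11) was the third highest of the 81 microRNA rows with 20 reads and stayed between 2.22 and 3.98 under the other scalings. All 22 bases of its mature sequence are G or C (100% GC), and the hairpin is 83.1% GC, the highest of the 16. Summed, both loci had 151 and 164 reads, a ratio of 0.929 (0.739 to 1.17) although the loci themselves lay on either side of it. The counts were made on the sense strand, so reads of the Trim80 and Dner messenger RNAs themselves would not be counted here if the library kept its strand.

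**Figure D4:**
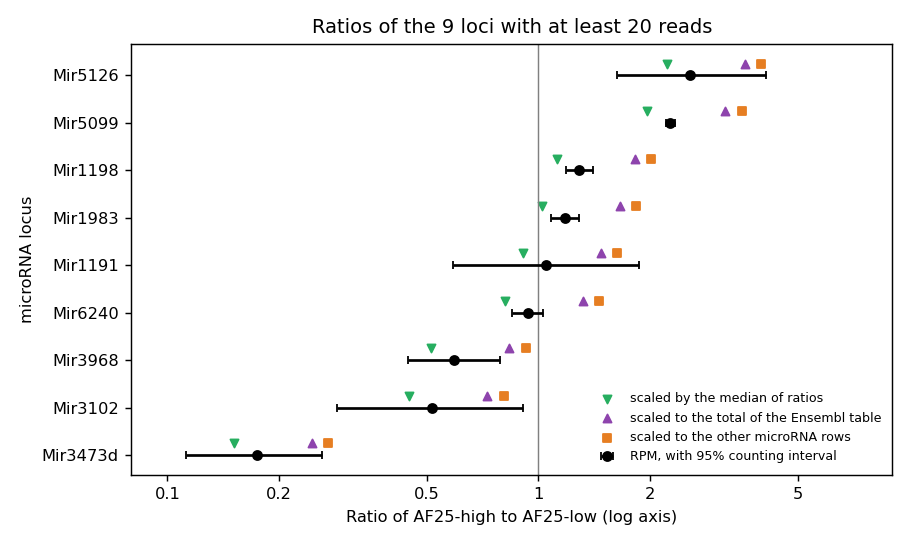
Ratio of AF25-high to AF25-low (log axis) for the 9 loci with at least 20 reads, with black points and bars for RPM and the 95% counting interval, and coloured points for the 3 other scalings. Mir5126 and Mir5099 lie at the top with 2.56 and 2.27, Mir3473d at the bottom with 0.174, and the points of Mir1191 and Mir6240 fall on both sides of 1.

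Mir3102 (chr7:100882306-100882409, minus strand) is an intron in itself. Its 104 bases begin and end exactly at the borders of an intron of Arhgef17, with 0 bases left over at either side and on the same strand. Hairpins of this kind, mirtrons, are freed by splicing and debranching in place of Drosha. Another annotated transcript of Arhgef17 retains the intron. Mir3102 is also unusual for its 4 mature sequences, which lie end to end in each arm, at bases 1 to 22 and 23 to 43 and, on the other side, at bases 60 to 80 and 81 to 103 of the hairpin. It had 20 reads in the AF25-high library and 39 in the AF25-low library, 0.693 and 1.34 RPM, a ratio of 0.517 (0.286 to 0.909). The direction held under all scalings, with 0.449 to 0.805, but the interval held 1 when scaled to the table's total (0.728, 0.402 to 1.28) or to the other microRNA rows (0.805, 0.445 to 1.41).

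Mir3473d (ENSMUSG00000093087; chr8:111016450-111016530, minus strand) lies in an intron of Ddx19b, which encodes an RNA helicase of messenger RNA export, on the same strand. It had 28 reads in the AF25-high library and 162 in the AF25-low library, 0.970 and 5.57 RPM. Its ratio of 0.174 (0.112 to 0.262) was the lowest of the 81 microRNA rows and the 435th of all 436 rows from the highest, and it stayed between 0.151 and 0.271 under the other scalings. In AF25-low it was the 25th of the 191 microRNA rows by reads and in AF25-high the 59th.

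Mir3473d is at the same time a locus of repeated sequence. A run of 20 bases of its hairpin was found in transcripts of 77 other genes, 48 in sense and 29 in antisense, though its whole mature sequence was found in none. Its predicted fold was the strongest of the 16 hairpins, at −0.64 kcal/mol per base. The authors assigned reads that fit several loci to the locus with most reads, and the part of that step in the ratio was not tested.

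Repeated runs marked 6 of the 16 hairpins when at least 10 other genes were asked for: Mir8112 with 104 genes, Mir3473d with 77, Mir1191 with 67, Mir5124a with 21, Mir3960 with 12 and Mir5106 with 10. Mir6240, with 9, fell just outside. The 6 loci together had 73 reads in the AF25-high library and 214 in the AF25-low library, a ratio of 0.344 (0.260 to 0.451), and stayed below 1 under all scalings. Mir3473d alone gave 162 of the 214 reads in AF25-low.

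Mir5124a (chr13:40865791-40865862, plus strand), in an intron of Gcnt2, a glycosyltransferase gene of the I blood group antigen, had 4 and 19 reads, a ratio of 0.212 (0.0525 to 0.639). Mir1191 (chr7:27205536-27205655, plus strand), in an untranslated exon of BC024978, did not share this direction. It had 27 and 26 reads, 0.936 and 0.893 RPM, a ratio of 1.05 (0.588 to 1.87) that other scalings put at 0.909 to 1.63. Mir5106 had 7 and 3 reads. Mir8112, in an untranslated exon of Krcc1, had 4 in each library, and Mir3960, in an untranslated exon of a transcript of Cdk9, the kinase that releases paused RNA polymerase II, had 3 and 0. The low sum of the repeated loci thus rested on Mir3473d and Mir5124a.

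**Figure D5:**
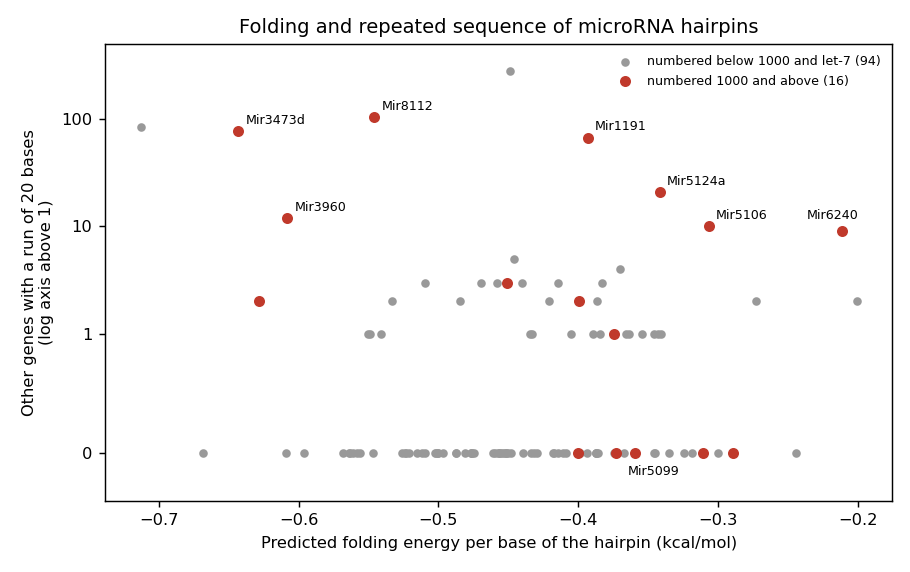
Other genes with an exact run of 20 bases of the hairpin (log axis above 1) against predicted folding energy per base for 16 hairpins numbered 1000 and above (red) and 94 numbered below 1000 or let-7 (grey). 6 of the red points and 2 of the grey points lie at 10 genes or more, and Mir6240 is the red point farthest to the right, at −0.21 kcal/mol per base.

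The hairpins were also set beside those of lower-numbered genes with a row. The median folding energy was −0.38 kcal/mol per base (−0.64 to −0.21) over the 16 and −0.45 (−0.71 to −0.20) over 94 numbered below 1000 or let-7. The median share of paired bases was 68.4% beside 73.6%, and GC content 53.6% beside 51.2%. The ranges overlapped almost whole in folding. The groups stood further apart in repeated sequence, with a run in at least 1 other gene for 11 of 16 against 30 of 94 and in at least 10 for 6 of 16 against 2 of 94, Mir297-1 and Mir574. Runs in close relatives of the same family, such as Mir16-1 and Mir16-2, are among the 30. Of the 124 lower-numbered rows 30 had no hairpin to search, and 16 of these belong to Mir297, Mir466, Mir467 and Mir669, families of many near-identical copies, so the count of 2 may be too low. No test was made.

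The remaining loci were rare, with under 20 reads in both libraries. The 11 loci of this kind ranged from 2 to 10 reads in AF25-high and from 0 to 19 in AF25-low, with 3 at 0 reads in AF25-low and 0 in AF25-high. Mir2137 (chrX:72992079-72992144, plus strand), in an intron of Zfp185, which encodes an actin-binding LIM protein, had 10 and 7 reads, a ratio of 1.44 (0.495 to 4.46). Mir6914 (chr10:128382838-128382906, plus strand), in a coding exon of Ankrd52, a regulatory subunit of a phosphatase that acts on Argonaute, had 7 and 6 reads, a ratio of 1.18 (0.339 to 4.24). Neither differed beyond counting error.

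Mir5118, outside protein-coding genes, and Mir5124b each had 6 reads in the AF25-high library and 0 in the AF25-low library. Taking the 6 reads as exact and the 3 reads that a library at 0 allows gives at least 2.02-fold on the RPM scale. Their exact counting interval starts at 1.19, and the lowest of the other scalings multiplies both bounds by 0.868. Rows had passed a minimum of expression, which these loci may have met only through AF25-high. No difference is therefore read from them. For Mir3960, with 3 and 0 reads, no fold can be given. Mir3079 had 8 reads and 1 read, a ratio of 8.07 with an interval of 1.08 to 358, and Mir6395 2 and 4. These 5 loci, like Mir8112, were named after their values were seen. Mir3079, Mir5124b and Mir6395 lie in introns on the opposite strand, of Spatc1, Gm3839 and Saraf, and summed to 16 and 5 reads, a ratio of 3.23 (1.13 to 11.3). Scaled by the median of ratios it was 2.80 (0.980 to 9.77), an interval that holds 1, and Mir6395 went the other way.

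Set side by side, loci in the same kind of location did not share a direction. The 5 loci in introns on the same strand summed to 1265 and 1142 reads, a ratio of 1.12 (1.03 to 1.21) that fell to 0.969 when scaled by the median of ratios. They held both Mir1198 at 1.29 and Mir3473d at 0.174. The 5 loci in exons on the same strand summed to 61 and 75 reads, a ratio of 0.820 (0.575 to 1.17) whose direction turned with the scaling. Mir3102 gave 20 and 39 of these reads and is in an exon only through the transcript that retains its intron. The 11 loci that overlapped an exon or a tRNA gene or held a repeated run had 1319 and 1336 reads, a ratio of 0.996 (0.922 to 1.08). The direction of this ratio depends on the scaling. The other 9 loci, of which Mir6236, Mir3079 and Mir6395 had no hairpin to search for runs, had 17175 and 8582 reads, a ratio of 2.02 (1.97 to 2.07), of which Mir5099 gave 15098 and 6720.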

How the data were processed

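Small RNA of 2 libraries, 1 per condition, was sequenced by the authors on the DNBseq platform, and sRNAbench with Bowtie was run on GRCm38, miRBase and RNAcentral. Their versions: not given in the sources used here. Reads on the sense strand were assigned to 1 locus each, that with the highest expression where several fitted. The deposited signal values are counts divided by a size factor per library and table, and the authors' deposited fold changes and p-values, from no replicates, were not used. The RNAcentral table was not used. By its name the Ensembl table kept rows over a minimum of expression, whose effect was not examined.

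Reads were recovered as the value divided by the smallest value above 0 of its column, and 100% came out whole in the Ensembl table (tolerance 1e-06). Library totals were the median over 38 anticodons of at least 100 RPM of recovered tRNA reads divided by the study's RPM. Log2 ratios had 0.5 reads added. Named loci were those of 20 reads or more in either library and the 5 next by reads. Symbols and overlaps came from GENCODE M21, which matched 1571 of 1596 identifiers. Sequences came from RefSeq (GRCm38.p6), with hairpins of 16 loci. Runs were searched on both strands. Folding used RNAfold 2.7.2, and intervals used scipy 1.17.1. The intervals were tested on simulated reads with counting error alone, so that test does not cover PCR or the spread between cultures. The members and lists were chosen with earlier results of these data known. Alternatives were 3 scalings, other minimums, 1 read added, and leaving out Mir5099 or overlapping loci.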

Additional observations from a re-analysis of the deposited data

How the results depend on the processing

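With 1 library per condition no replicate could be left out and the spread between cultures is unknown; counting error alone limits loci of under 20 reads to wide intervals. No paired analysis was possible because each condition has 1 library. The scalings were the median of ratios, the total of the Ensembl table and the other microRNA rows, and they shift every log2 ratio by −0.20, 0.49 and 0.64. In that order, the summed ratio of the 20 loci went from 1.88 to 1.63, 2.65 and 2.93, the median log2 ratio from 0.07 to −0.14, 0.56 and 0.70, and loci outside genes from 2.11 to 1.83, 2.97 and 3.28. Loci in introns on the same strand went from 1.12 to 0.969, 1.57 and 1.74. The last pair of scalings took opposite-strand exons from 0.929 to 1.31 and 1.45 and repeated runs from 0.344 to 0.484 and 0.536, and the last one took same-strand exons from 0.820 to 1.28. The median of ratios left 1 locus at least 2-fold higher, since Mir5099 came to 1.97, and made 2 at least 2-fold lower, with Mir3102 at 0.449. Over all 436 rows, 229 higher and 207 lower became 193 and 242, 310 and 126, and 340 and 96. Rows at least 2-fold higher and lower went from 70 and 53 to 51 and 76, 134 and 21, and 167 and 15. Without Mir5099 the summed ratio was 1.07. Without loci that overlap an exon or tRNA gene or hold a repeated run it was 2.02, the median 0.37, and 1 and 0 loci were 2-fold higher and lower. With no minimum, 7 were 2-fold higher and 2 lower and the median was 0.23. The 7 include Mir5118, Mir5124b and Mir3960, which had 0 reads in AF25-low, and for Mir3960 no fold can be given. The share over all rows without a minimum was not counted, so the 7 are not read as a result. A minimum of 10 reads gave 2 lower and one of 50 a median of 0.24. These shifts follow from the factor or the loci left out. Direction turned under at least 1 alternative for the median log2 ratio (also −0.02 at a minimum of 10 reads), both exon groups, same-strand introns, Mir6240 and Mir1191. The sums without Mir5099, of the overlapping or repeated loci and of the loci that share a seed also lie in the range that the scalings turn. A repeat-masked genome was not used here, so repeats were judged by shared runs, and taking the median of several rows was not run because each symbol has 1 row.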
